A study of Mus musculus with 9 samples.

Results

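Cholesterol and fatty acid synthesis was examined through 33 genes, chosen by name for the step each one serves. The set holds the transcription factors Srebf1 and Srebf2 with their regulator Insig1, the enzymes that build isoprenoid units from acetyl-CoA (Hmgcs1, Mvk, Pmvk, Mvd, Idi1 and Fdps), those that make squalene and close it into lanosterol (Fdft1, Sqle and Lss), and those that turn lanosterol into cholesterol (Cyp51, Tm7sf2, Msmo1, Nsdhl, Hsd17b7, Ebp, Sc5d and Dhcr7). It also holds the sterol carrier Stard4, the genes that supply acetyl-CoA and NADPH (Acly, Acss2 and Me1), the fatty acid makers Acaca, Acacb and Fasn, and the elongases and desaturases Elovl5, Elovl6, Scd1, Scd2, Fads1 and Fads2. The set was defined by these names and not by the genes' values, although earlier results on the same libraries were known when it was drawn up. All 33 were present once in the deposited table of 55385 genes, and all 33 were among the 21392 genes with enough counts to be tested.

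Cells make cholesterol from acetyl-CoA by way of mevalonate, isoprenoid units, squalene and lanosterol, and they make fatty acids from the same acetyl-CoA with NADPH as the reducing agent. The sterol regulatory element-binding proteins, encoded by Srebf1 and Srebf2, are held in the endoplasmic reticulum by INSIG proteins when sterols are plentiful, and are cut free to switch on the enzymes of both pathways when sterols are scarce. Kidney tubule cells make sterols of their own, and the proximal tubule draws much of its energy from burning fatty acids.

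RNA from kidney tissue of male C57BL/6J mice (C57BL/6 in the labels) was sequenced in 3 groups of 3 libraries each. The stated age, 8 to 10 weeks, is that of the mice in which the 4-week model was set up. Control mice were untreated, and their libraries carry replicate numbers 2, 4 and 5. HN mice had hyperuricemic nephropathy, kidney injury under a high uric acid load, produced over 4 weeks with adenine at 0.16 g/kg and with potassium oxonate, an inhibitor of the enzyme that breaks down uric acid, at 2.4 g/kg, given every other day (replicates 4, 8 and 12). PEC mice received the same agents and, daily by mouth, the plant flavonoid pectolinarigenin at 25 mg/kg (replicates 1, 2 and 3). The sample titles call the Control libraries HN mice, while their disease state is given as control and their treatment as untreated. The HN libraries are labelled untreated as well, and the grouping followed disease state and treatment. The labels do not say that each library came from a different mouse, so the tests measure the spread between libraries, part of which may be technical.

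Levels are given as normalised FPKM, the deposited FPKM (fragments scaled to gene length and library total) divided by the library's TMM factor, a factor that sets the bulk of genes level between libraries. Because FPKM is per gene length, levels can be set beside each other between genes. Values of 3 libraries follow the order of the replicate numbers above, and means are given with the SD of 3 libraries. The libraries held 57714111 to 81069646 counts, and the lowest count of any of the 33 genes in any library was 438 (Tm7sf2). The part of read sampling in the differences between libraries was not tested. A gene was called when its fold change was at least 1.5 (0.585 on the log2 scale) in either direction and its Benjamini-Hochberg adjusted p was at most 0.05 in edgeR's quasi-likelihood test, a test on counts that takes the spread between libraries into account. Unless another setting is named, edgeR's calls are those with TMM scaling, its default filter on low counts, no offsets for GC content or length, and all 9 libraries.

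The TMM factors differed between the groups, at 0.778 to 0.832 in Control, 1.15 to 1.22 in HN and 1.02 to 1.05 in PEC libraries. With scaling by total counts only, which is the scaling of FPKM itself, the median log2 fold change of all tested genes moved from −0.00 to 0.56 in HN against Control, from −0.02 to −0.21 in PEC against HN, and from 0.04 to 0.40 in PEC against Control. Changes below are therefore relative to the bulk of genes. Mitochondrial genes took 14.2 ± 1.82% of counts in Control, 6.19 ± 0.164% in HN and 12.3 ± 1.77% in PEC libraries, and their part in the results was not tested.

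In Control kidneys Me1, the malic enzyme that makes NADPH, had the highest level of the 33, at 178 ± 26.1. Hmgcs1 came next at 121 ± 10.6 and Cyp51 after it at 77.3 ± 10.8. Fads2 at 46.2 ± 4.92, Idi1 at 41.6 ± 17.4 and Acly at 38.4 ± 4.35 lay within each other's spread. The lowest were Lss at 2.401 ± 0.184, Tm7sf2 at 2.33 ± 0.0804 and Acaca at 1.48 ± 0.115. In HN kidneys Scd1 (58.5 ± 14.7), Hmgcs1 (55.5 ± 2.83) and Me1 (47.4 ± 5.402) headed the order, with ranges that met or overlapped. In PEC kidneys the same 3 genes led, with Me1 at 62.96 ± 18.5, Scd1 at 47.3 ± 7.01 and Hmgcs1 at 45.3 ± 6.75.

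**Figure D1:**
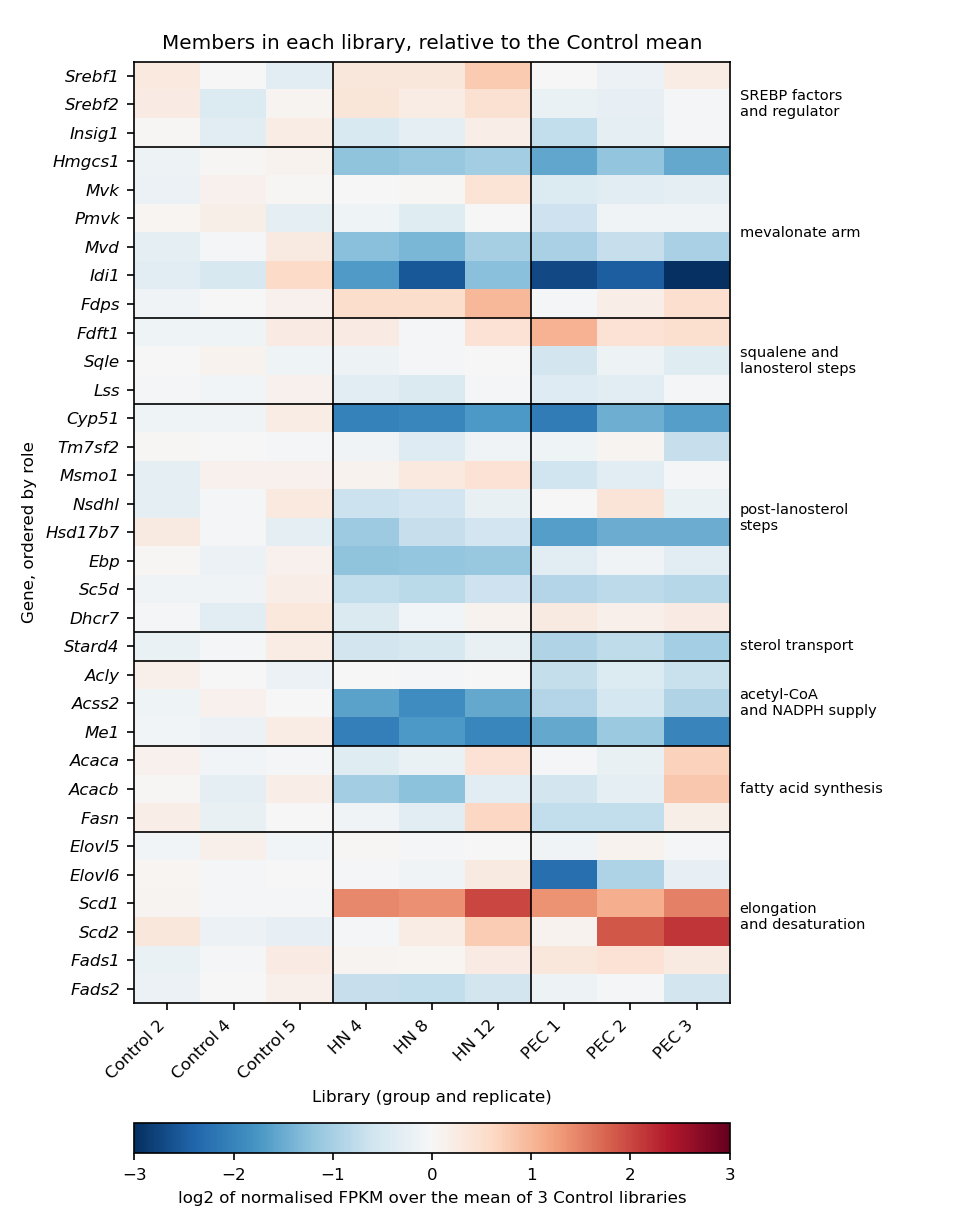
Heat map of the 33 genes (vertical axis, ordered by role) in the 9 libraries (horizontal axis, by group and replicate); colour is the log2 of the normalised FPKM over the mean of the 3 Control libraries, and colours stop at −3 and 3. Cyp51, Me1 and Idi1 are blue in all 6 HN and PEC libraries, with Idi1 at −4.12 in PEC replicate 3, and Scd1 is red in all 6.

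HN against Control asks what the adenine and oxonate model did to these genes. In HN kidneys 7 of the 17 enzymes of sterol synthesis were called lower than in Control kidneys, 3 in the mevalonate arm and 4 after lanosterol, and Fdps was called higher. Of all tested genes, 14.7% were called lower and 17.7% higher. With total counts only, the sterol enzymes called lower were Mvd and Cyp51, and those called higher were Fdps, Mvk, Fdft1 and Msmo1. None of the 3 squalene and lanosterol genes was called by edgeR with TMM scaling, at an unadjusted p (0 of 3) or by DESeq2 (0 of 3), while Fdft1 was called higher with total counts only. Me1, a source of NADPH, and Acss2, a source of acetyl-CoA, were called lower as well, and Acly, the more abundant source of acetyl-CoA, was not. The desaturase Scd1 was called higher. The transcription factors Srebf1 and Srebf2 were not among the genes called lower. The libraries were made from kidney tissue, so fewer cells of a type and less RNA per cell cannot be told apart.

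The summed level of the 17 sterol enzymes, from Hmgcs1 to Dhcr7, was 353, 369 and 443 in Control libraries, 184, 183 and 218 in HN libraries and 177, 218 and 183 in PEC libraries. Every HN library was below every Control library in this sum, and the HN and PEC libraries overlapped. The sum of the 9 genes that make, lengthen and desaturate fatty acids was 124, 125 and 133 in Control libraries, 141, 137 and 184 in HN libraries and 148, 172 and 185 in PEC libraries. Here every HN and PEC library was above every Control library. Without Scd1 the sum of the other 8 was 104, 107 and 115 in Control libraries, 90.01, 87.9 and 108 in HN libraries and 100.1, 132 and 131 in PEC libraries, and the Control and HN libraries overlapped.

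Of the 33 genes, 10 (30.3%) were called lower in HN than in Control, where 14.7% of all tested genes were called lower, and 2 (6.06%) were called higher, where 17.7% of all tested genes were. The 10 were Hmgcs1, Mvd, Idi1, Cyp51, Hsd17b7, Ebp, Sc5d, Acss2, Me1 and Fads2, and the 2 were Fdps and Scd1. In PEC against HN 13.4% of all tested genes were called higher and 15.3% lower, and in PEC against Control 18.9% were called higher and 17.4% lower. For 13 of the 33 (39.4%) every HN library was below every Control library, which held for 28.2% of all tested genes, and for 3 (9.09%) every HN library was above, which held for 27.2%. The same shares of all tested genes were 29.7% below and 25.5% above for PEC against HN, and 29.6% below and 27.5% above for PEC against Control. The 13 were the 10 called lower with Tm7sf2, Stard4 and Acacb, and the 3 above were Srebf1, Fdps and Scd1. Without HN replicate 12 the count of genes called higher was 1. The median log2 fold change of the 33 was −0.13, with 19 of them negative, beside −0.00 for all tested genes.

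These counts depended on scaling: with total counts only, 8 of the 33 were called higher and 4 lower, and their median was 0.44 beside 0.56 for all tested genes. That scaling called 36.0% of all tested genes higher and 6.01% lower. Of all genes called, 85.7% were higher under that scaling and 54.5% with TMM, and 81.9% and 83.2% were with limma on log2 FPKM with 1 or 0.1 added. Under total counts the 4 called lower were Mvd, Cyp51, Acss2 and Me1, and the 8 called higher were Fdps, Scd1, Srebf1 (1.08), Srebf2 (0.93), Mvk (0.75), Fdft1 (0.82), Msmo1 (0.86) and Fads1 (0.72). The 10 genes called lower with TMM had negative fold changes under every scaling tried.

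PEC against HN asks what pectolinarigenin changed in mice with the model. Few of these genes differed between PEC and HN kidneys by enough to be called. Ebp and Acss2, which were low in HN, stood higher in PEC, and Hsd17b7, also low in HN, stood lower still. For the other 7 genes called lower in HN, the difference between PEC and HN was not called.

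In this comparison 2 of the 33 (6.06%) were called higher, Ebp and Acss2, and 1 (3.03%) was called lower, Hsd17b7. Of all tested genes, 13.4% were called higher and 15.3% lower. Every PEC library was above every HN library for 8 of the 33 (24.2%), beside 25.5% of all tested genes. The 8 were Mvd, Fdft1, Nsdhl, Ebp, Dhcr7, Acss2, Fads1 and Fads2. Every PEC library was below every HN library for 10 (30.3%), beside 29.7% of all tested genes. The 10 were Srebf1, Srebf2, Mvk, Fdps, Sqle, Msmo1, Hsd17b7, Stard4, Acly and Elovl6. Both shares were close to those of all tested genes. The count called higher was 4 without HN replicate 12 or PEC replicate 1 and 5 without PEC replicate 3, and the count called lower was 2 without HN replicate 4, HN replicate 8 or PEC replicate 2 and 4 without PEC replicate 3. The median log2 fold change was −0.08 beside −0.02 for all tested genes. With total counts only, 2 were called higher and 10 lower (Srebf1, Srebf2, Mvk, Idi1, Fdps, Msmo1, Hsd17b7, Stard4, Acly and Elovl6), and of all genes called 29.6% were higher in place of 46.8% (28.6% and 28.4% with limma on log2 FPKM with 1 or 0.1 added). That scaling called 9.12% of all tested genes higher and 21.6% lower. Upper-quartile scaling moved the median of all tested genes to 0.11 and that of the 33 to 0.04, with 6 called higher (Ebp, Acss2, Fdft1 at 0.61, Nsdhl at 0.69, Acacb at 1.06 and Scd2 at 1.38) and 1 lower, and 58.1% of all calls higher, where 16.7% of all tested genes were called higher and 12.1% lower. With offsets for GC content and length 4 were called higher (Ebp, Acss2, Acacb and Scd2) and 1 lower, Mvk in place of Hsd17b7, where 2570 of 21358 tested genes were called higher and 2344 lower.

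PEC against Control asks how far treated kidneys were from untreated ones without the model. Most sterol enzymes that were low in HN were also low in PEC, and Ebp was the main exception. Scd1 stood above Control in PEC as it did in HN. Scd2 and Fdft1 were called higher in PEC as well, although Scd2 in PEC replicate 1 lay within the Control range. The calls of Scd2 and Fdft1 were lost when certain single libraries were left out, as given below. This comparison shares its libraries with the other comparisons, so the values are set side by side and no overlap between comparisons was computed.

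Here 9 of the 33 (27.3%) were called lower, beside 17.4% of all tested genes. The 9 were Hmgcs1, Mvd, Idi1, Cyp51, Hsd17b7, Sc5d, Stard4, Acss2 and Me1. Called higher were 3 (9.09%), namely Fdft1, Scd1 and Scd2, beside 18.9% of all tested genes. Every PEC library was below every Control library for 13 (39.4%), the 9 called lower with Mvk, Sqle, Acly and Elovl6, beside 29.6% of all tested genes. Every PEC library was above every Control library for 3 (9.09%), Fdft1, Scd1 and Fads1, beside 27.5% of all tested genes. The median log2 fold change was −0.22 beside 0.04 for all tested genes. With total counts only, 6 were called higher (Fdps at 0.64, Dhcr7 at 0.63 and Fads1 at 0.75 beside the 3) and 5 lower, without Mvd (−0.47), Sc5d (−0.43), Stard4 (−0.49) and Acss2 (−0.36), and the median of the 33 was 0.13 beside 0.40. That scaling called 30.0% of all tested genes higher and 9.16% lower. Of all genes called, 76.6% were then higher in place of 52.1% (70.7% and 70.9% with limma on log2 FPKM with 1 or 0.1 added), and upper-quartile scaling gave 63.6%, a median of all tested genes of 0.20, and 3 higher and 8 lower among the 33, without Acss2 (−0.56), where 23.1% of all tested genes were called higher and 13.2% lower. With offsets for GC content and length 9 were called lower, 7 of them the same genes, with Mvk and Pmvk in place of Sc5d and Stard4, where 15.2% of all tested genes were called lower.

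**Figure D2:**
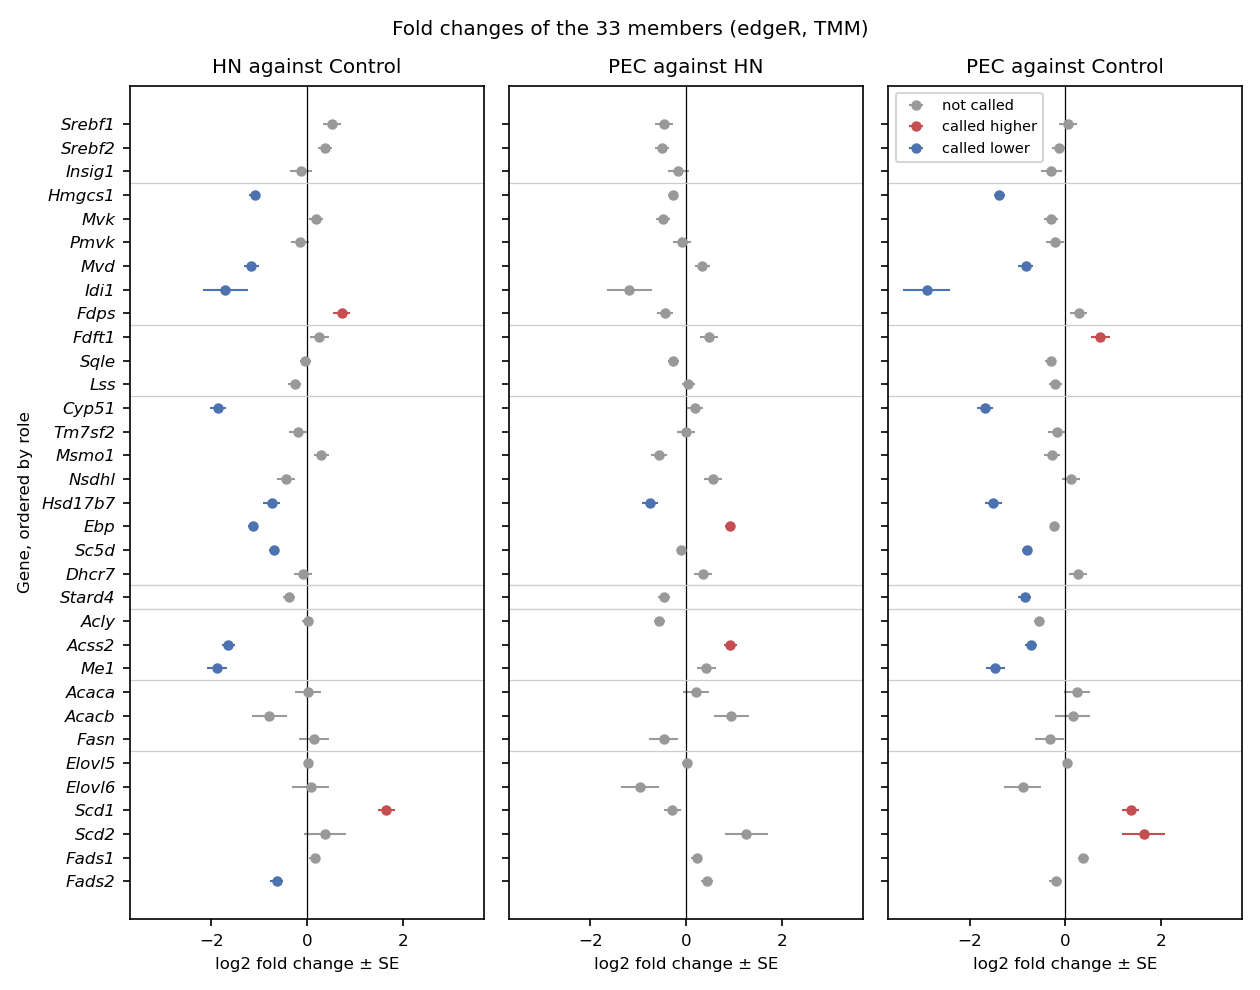
log2 fold change (horizontal axis) of the 33 genes (vertical axis, by role) in the 3 comparisons with TMM scaling, where points are edgeR estimates, bars are SE, and red or blue marks genes called higher or lower. HN against Control holds 10 blue and 2 red points, PEC against HN 1 and 2, and PEC against Control 9 and 3, and with total counts only these counts were 4 and 8, 10 and 2, and 5 and 6.

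The cell types of the kidney are given here by marker genes, beside the results above. Of 12 proximal tubule markers, 11 were called lower in HN than in Control (median log2 fold change −2.04), 10 were called higher in PEC than in HN (0.99), and 11 were called lower in PEC than in Control (−1.25). Their summed level was 33860, 32450 and 52400 in Control libraries, 3222, 5100 and 4049 in HN libraries and 13420, 19310 and 12310 in PEC libraries, led by Kap. All 5 injured tubule markers were called higher in HN (5.29) and in PEC (4.01) than in Control, and 2 were called lower in PEC than in HN (−0.55). Their sum, led by Havcr1, was 7.53, 6.696 and 3.71 in Control libraries, 468, 454 and 431 in HN libraries and 309, 345 and 353 in PEC libraries. All 8 macrophage markers were called higher in HN (3.60) and in PEC (2.48) than in Control, and 6 were called lower in PEC than in HN (−1.07). Their sum, led by Cd74, was 131, 148 and 138 in Control libraries, 1629, 1680 and 1416 in HN libraries and 719, 885 and 1244 in PEC libraries. Of 6 fibroblast and pericyte markers, 6 were called higher in HN (1.38) and 5 in PEC (1.16) than in Control, 4 were called lower in PEC than in HN (−0.83), and the sum, led by Col3a1, was 52.9, 50.9 and 48.2 in Control libraries, 263, 260.2 and 236 in HN libraries and 150.2, 169 and 139.7 in PEC libraries. The part of these cell types in the results for the 33 genes was not tested.

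Of 6 lymphocyte markers, 5 were called higher in HN and 3 in PEC than in Control, 1 was called lower in PEC than in HN, and the sum, led by Jchain, was 2.65, 4.92 and 7.02 in Control libraries, 14.2, 28.1 and 26.1 in HN libraries and 4.02, 5.34 and 3.72 in PEC libraries. Of 5 loop of Henle and distal tubule markers, 3 were called lower in HN than in Control and 3 in PEC than in Control (2 of them, Slc12a1 and Pvalb, in both), 2 were called higher in PEC than in HN, and the sum, led by Umod, was 1396, 1534 and 1556 in Control libraries, 1407, 1210 and 1321 in HN libraries and 1304, 1397 and 1224 in PEC libraries. Of 5 collecting duct markers, 4 were called lower in HN and 2 in PEC than in Control, 3 were called higher in PEC than in HN, and the sum, led by Aqp2, was 399.9, 442 and 223 in Control libraries, 165, 109 and 152 in HN libraries and 193, 188 and 248 in PEC libraries. Of 4 endothelial markers, 1 was called lower in HN and 1 in PEC than in Control, 1 was called higher in PEC than in HN, and the sum, led by Emcn, was 38.3, 42.3 and 45.1 in Control libraries, 36.7, 36.9 and 34.9 in HN libraries and 29.8, 34.2 and 45.7 in PEC libraries. None of 4 podocyte markers was called in any comparison by edgeR with TMM scaling, at an unadjusted p (0 of 4) or by DESeq2 (0 of 4), and their sum, led by Podxl, was 67.9, 65.7 and 69.3 in Control libraries, 69.2, 60.4 and 57.1 in HN libraries and 73.03, 72.3 and 63.98 in PEC libraries. Of 6 adrenal cortex markers 2 could be tested, Star and Mc2r, with Star called higher in PEC than in Control (0.62), and neither was called in HN against Control or PEC against HN by edgeR, at an unadjusted p or by DESeq2 (0 of 2 in each). Cyp11a1, Cyp11b1 and Cyp21a1 were at 0 in all Control libraries, and the sum of the 6 was 0.672, 1.25 and 0.707 in Control libraries, 1.22, 1.305 and 1.83 in HN libraries and 1.10, 1.25 and 1.43 in PEC libraries. The part of these markers too was not tested.

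Srebf1 encodes the SREBP1 proteins, which chiefly drive fatty acid genes, and Srebf2 encodes SREBP2, which chiefly drives sterol genes. Srebf1 measured 7.62, 6.17 and 4.92 in Control libraries, 7.87, 7.94 and 10.7 in HN libraries and 6.15, 5.56 and 7.27 in PEC libraries. Every HN library lay above every Control and every PEC library, and Control and PEC overlapped. Srebf2 measured 14.04, 8.92 and 12.4 in Control libraries, 15.1, 13.8 and 16.2 in HN libraries and 10.2, 9.95 and 11.2 in PEC libraries. Its HN libraries lay above all PEC libraries, and the lowest of them was below the highest Control library. The log2 fold change of Srebf1 in HN against Control was 0.53 (SE 0.19), with a Benjamini-Hochberg adjusted p of 0.0535 in edgeR's quasi-likelihood test, so it was not called. It was called without Control replicate 2 (0.70), with a minimum mean FPKM of 1 (0.60) and with total counts only. The change of Srebf1 in PEC against HN was −0.46 (SE 0.19), with a Benjamini-Hochberg adjusted p of 0.0857 in edgeR's quasi-likelihood test. Srebf2 had 0.37 (SE 0.15) in HN against Control and −0.50 (SE 0.15) in PEC against HN, the latter with a Benjamini-Hochberg adjusted p of 0.0293 in edgeR's quasi-likelihood test but short of the fold limit. Both lay near 0 in PEC against Control, at 0.06 for Srebf1 and −0.13 for Srebf2. The median of Srebf1, Srebf2 and Insig1 in that comparison was −0.13 with TMM and turned to 0.23 with total counts only and to 0.03 with upper-quartile scaling.

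Insig1 holds the SREBP proteins back when sterols are plentiful, and is itself a target of SREBP. It measured 12.9, 10 and 14.6 in Control libraries, 9.08, 10.3 and 14.3 in HN libraries and 7.48, 10.4 and 11.9 in PEC libraries. The ranges of the 3 groups overlapped. Its log2 fold changes were −0.13 (SE 0.22) in HN against Control, −0.16 (SE 0.22) in PEC against HN and −0.29 (SE 0.22) in PEC against Control, none of them called. With TMM scaling, all libraries and its default filter on low counts edgeR called none of these 3 genes in any comparison, nor did an unadjusted p with the same fold limit (0 of 3) or DESeq2 (0 of 3). With total counts only, Srebf1 and Srebf2 were called higher in HN against Control and lower in PEC against HN.

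Hmgcs1 makes HMG-CoA, the substrate of mevalonate formation. It measured 109, 123 and 130.1 in Control libraries, 52.7, 55.5 and 58.4 in HN libraries and 40.9, 53.1 and 41.9 in PEC libraries. Every HN and PEC library was below every Control library, and the PEC range reached into the HN range. Its level fell in HN against Control, with a log2 fold change of −1.10 (SE 0.11) and a Benjamini-Hochberg adjusted p of 6.43e-05 in edgeR's quasi-likelihood test. PEC against HN gave −0.28 (SE 0.11), not called, and PEC against Control −1.38 (SE 0.11), called lower. Mvd turns mevalonate diphosphate into the first isoprenoid unit. It measured 24.2, 28.1 and 34.8 in Control libraries, 12.2, 11.2 and 14.7 in HN libraries and 14.8, 18.1 and 14.9 in PEC libraries. All HN libraries were below all PEC libraries, and all PEC libraries were below all Control libraries. Mvd fell in HN against Control, with a log2 fold change of −1.17 (SE 0.16) and a Benjamini-Hochberg adjusted p of 0.000309 in edgeR's quasi-likelihood test. Its change in PEC against HN was 0.34 (SE 0.15), not called, and in PEC against Control it was −0.83 (SE 0.15), called lower.

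Idi1 interconverts the isoprenoid building blocks. It measured 33.6, 29.7 and 61.5 in Control libraries, 12.8, 7.11 and 17.5 in HN libraries and 6.41, 7.47 and 2.39 in PEC libraries. All Control libraries were above all others, PEC libraries reached from below the HN range into it, and the spread within each group was wide. Its log2 fold change in HN against Control was −1.71 (SE 0.47), with a Benjamini-Hochberg adjusted p of 0.0168 in edgeR's quasi-likelihood test. That call was lost without Control replicate 5 (−1.32), without HN replicate 4 (−1.73) and without HN replicate 8 (−1.43). Idi1 in PEC against HN had −1.19 (SE 0.47), with a Benjamini-Hochberg adjusted p of 0.0727 in edgeR's quasi-likelihood test, and it was called lower without HN replicate 8 (−1.47), by DESeq2 (−1.18) and with total counts only. Its change in PEC against Control was −2.90 (SE 0.49), the largest fall of the 33 genes with TMM scaling, with a Benjamini-Hochberg adjusted p of 0.00127 in edgeR's quasi-likelihood test.

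Fdps joins isoprenoid units into farnesyl diphosphate, and moved the other way. It measured 4.42, 4.72 and 5.23 in Control libraries, 6.96, 6.87 and 9.55 in HN libraries and 4.66, 5.53 and 6.798 in PEC libraries. Every HN library was above every Control and every PEC library. Its log2 fold change in HN against Control was 0.73 (SE 0.17), with a Benjamini-Hochberg adjusted p of 0.0086 in edgeR's quasi-likelihood test, and without HN replicate 12 it was 0.55 and not called. PEC against HN gave −0.44 (SE 0.17) and PEC against Control 0.28 (SE 0.17), neither called. Mvk phosphorylates mevalonate. It measured 3.43, 4.24 and 3.97 in Control libraries, 3.895, 3.96 and 5.18 in HN libraries and 2.91, 3.08 and 3.18 in PEC libraries. All PEC libraries were below all others, while HN and Control overlapped. Mvk had 0.18 (SE 0.15) in HN against Control and −0.49 (SE 0.15) in PEC against HN, the latter short of the fold limit. With GC and length offsets Mvk was called lower in PEC against HN (−0.73) and in PEC against Control (−0.63). Pmvk, the next kinase, was not called by edgeR with TMM in any comparison and was called lower in PEC against Control with GC and length offsets (−0.62), with TMM log2 fold changes of −0.14, −0.08 and −0.22. The median of the 6 genes of this arm was −0.62 in HN against Control with TMM and −0.06 with total counts only. The library values of Fdps, Mvk, Fdft1, Sc5d, Nsdhl, Msmo1, Stard4, Acly, Fasn, Acacb, Acaca, Scd2, Elovl6 and single marker genes are given by choice after those values were seen.

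Fdft1 joins 2 farnesyl units into squalene. It measured 4.73, 4.74 and 6.12 in Control libraries, 6.19, 5.09 and 6.97 in HN libraries and 10.8, 7.06 and 7.27 in PEC libraries. All PEC libraries were above all HN and all Control libraries, and HN and Control overlapped. Its log2 fold change was 0.25 (SE 0.20) in HN against Control and 0.48 (SE 0.20) in PEC against HN, neither called. The change in PEC against Control was 0.73 (SE 0.20), with a Benjamini-Hochberg adjusted p of 0.0141 in edgeR's quasi-likelihood test, and without PEC replicate 1 it was 0.50 and not called. Sqle, which adds oxygen to squalene, had log2 fold changes of −0.04, −0.27 and −0.31 in the 3 comparisons, none called by edgeR with TMM. Lss, which closes the ring to lanosterol, had −0.26, 0.05 and −0.21, none called in that way. The median of these 3 genes in HN against Control was −0.04 with TMM and 0.52 with total counts only, with a flip of sign as well in PEC against HN (0.05 to −0.15) and in PEC against Control (−0.21 to 0.15).

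Cyp51 removes a methyl group from lanosterol, the first step after ring closure. It measured 70.3, 71.8 and 89.7 in Control libraries, 19.1, 19.9 and 23.6 in HN libraries and 17.9, 27.9 and 24.4 in PEC libraries. Every HN and PEC library was far below every Control library, and HN and PEC overlapped. Cyp51 fell in HN against Control, with a log2 fold change of −1.86 (SE 0.17) and a Benjamini-Hochberg adjusted p of 3.38e-05 in edgeR's quasi-likelihood test. PEC against HN gave 0.18 (SE 0.17), with a Benjamini-Hochberg adjusted p of 0.42 in edgeR's quasi-likelihood test. PEC against Control gave −1.68 (SE 0.17), called lower.

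Ebp moves a double bond within the sterol ring. It measured 32.1, 27.6 and 34.1 in Control libraries, 13.6, 14.1 and 14.2 in HN libraries and 24.7, 28.9 and 24.5 in PEC libraries. The HN libraries were all below the lowest of the other groups, while PEC overlapped with Control. Its log2 fold change in HN against Control was −1.14 (SE 0.10), with a Benjamini-Hochberg adjusted p of 2.55e-05 in edgeR's quasi-likelihood test. It rose in PEC against HN by 0.92 (SE 0.10), with a Benjamini-Hochberg adjusted p of 0.000174 in edgeR's quasi-likelihood test. The difference that remained in PEC against Control was −0.22 (SE 0.10) and was not called. Hsd17b7 reduces a keto group of the sterol ring. It measured 8.59, 6.94 and 5.798 in Control libraries, 3.34, 4.41 and 4.78 in HN libraries and 2.25, 2.54 and 2.54 in PEC libraries. Control libraries were highest, HN libraries lay in between, and PEC libraries were lowest, with no overlap. It fell in HN against Control, with a log2 fold change of −0.74 (SE 0.17) and a Benjamini-Hochberg adjusted p of 0.00757 in edgeR's quasi-likelihood test, and without Control replicate 2 the change was −0.58, just short of the fold limit. It fell further in PEC against HN, with a log2 fold change of −0.76 (SE 0.17) and a Benjamini-Hochberg adjusted p of 0.00828 in edgeR's quasi-likelihood test, a call lost when the counts were corrected for GC content and gene length (−0.36). PEC against Control gave −1.50 (SE 0.18), called lower.

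Sc5d adds a double bond near the end of the pathway. It measured 10.7, 10.7 and 13.3 in Control libraries, 6.95, 6.62 and 7.53 in HN libraries and 6.32, 6.75 and 6.41 in PEC libraries. All HN and PEC libraries were below all Control libraries, and HN and PEC overlapped. Sc5d had a log2 fold change of −0.69 (SE 0.10) in HN against Control, with a Benjamini-Hochberg adjusted p of 0.000613 in edgeR's quasi-likelihood test. It had −0.10 (SE 0.10) in PEC against HN, not called, and −0.79 (SE 0.10) in PEC against Control, called lower. With GC and length offsets the former turned to 0.39 and the latter was −0.35 and not called. Nsdhl removes a carboxyl group from the sterol. It measured 14.1, 16.5 and 21.3 in Control libraries, 11.02, 11.6 and 14.9 in HN libraries and 17.3, 22.6 and 15.2 in PEC libraries. Every PEC library was above every HN library. Nsdhl had 0.57 (SE 0.19) in PEC against HN, just short of the fold limit, and was called without HN replicate 12 (0.72), without PEC replicate 3 (0.71) or with a minimum mean FPKM of 1 (0.59). Msmo1 oxidises a methyl group of the sterol. It measured 5.44, 7.24 and 7.29 in Control libraries, 7.11, 8.13 and 8.94 in HN libraries and 4.43, 5.25 and 6.36 in PEC libraries. All PEC libraries were below all HN libraries. Msmo1 had −0.57 (SE 0.17) in PEC against HN, not called, and was called lower without HN replicate 4 (−0.66), without PEC replicate 3 (−0.70) or with no filter on low counts (−0.61).

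In HN against Control the changes of Nsdhl (−0.44) and Msmo1 (0.30) were not called. Tm7sf2 and Dhcr7, which reduce double bonds, were not called by edgeR with TMM in any comparison, with −0.18, 0.01 and −0.18 for Tm7sf2 and −0.09, 0.35 and 0.26 for Dhcr7. The median of the 8 genes after lanosterol was −0.57 in HN against Control with TMM and −0.00 with total counts only. It was 0.09 in PEC against HN and flipped to −0.11, and in PEC against Control it was −0.25 and flipped to 0.11. Over the 17 sterol enzymes the median was −0.26, −0.08 and −0.27 in the 3 comparisons, 0.31, −0.28 and 0.09 with total counts only, and 0.04 in PEC against HN with upper-quartile scaling.

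**Figure D3:**
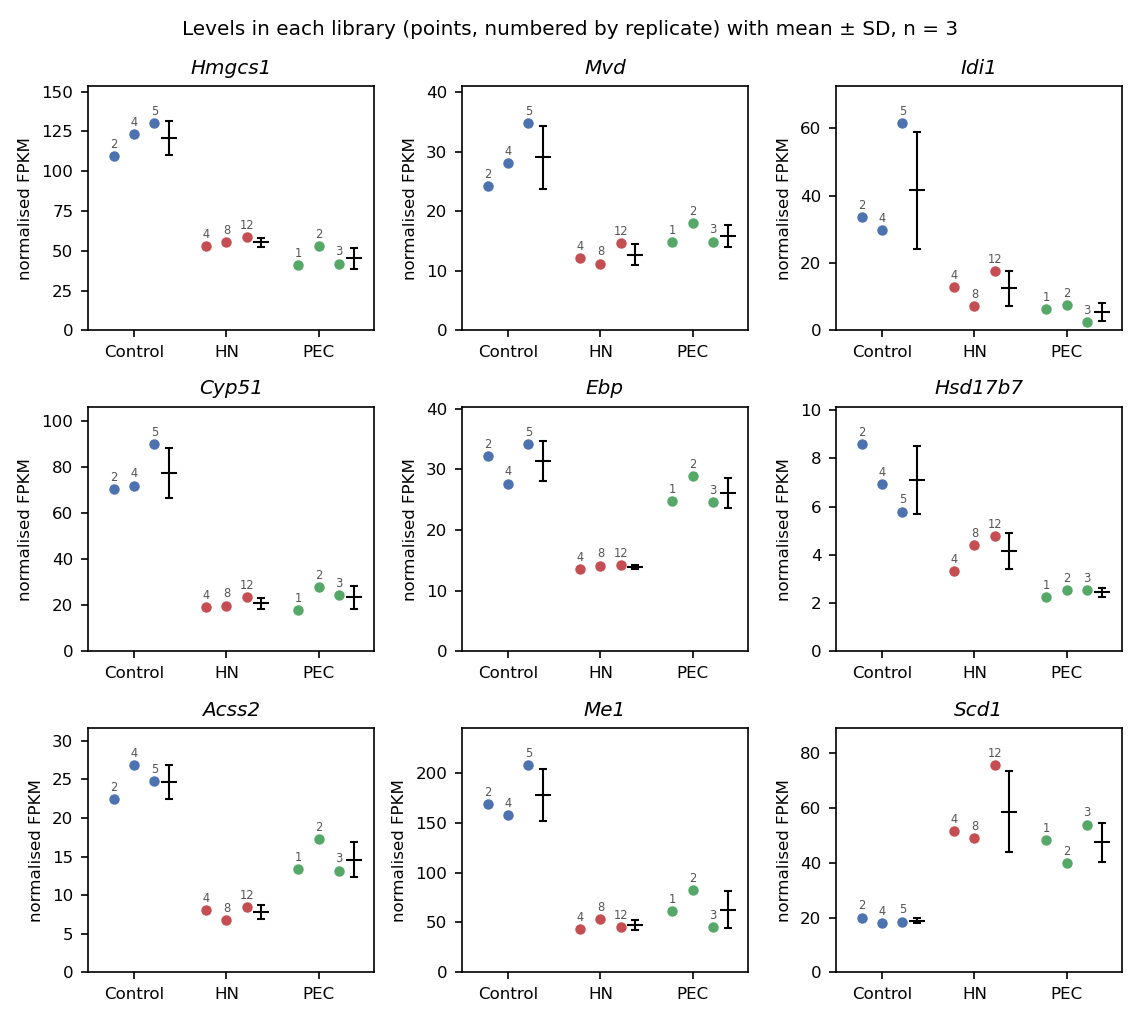
Level in each library (normalised FPKM, vertical axis) of the genes named in each panel, by group (horizontal axis), where points are libraries and bars are the mean and SD of 3. Cyp51 measured 70.3, 71.8 and 89.7 in Control libraries and 19.1, 19.9 and 23.6 in HN libraries, and Ebp in PEC libraries (24.7, 28.9 and 24.5) lies above HN (13.6, 14.1 and 14.2).

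Stard4 carries cholesterol between membranes. It measured 14.6, 16.1 and 19.7 in Control libraries, 11.5, 12.1 and 14.3 in HN libraries and 8.93, 9.93 and 8.33 in PEC libraries. Control, HN and PEC libraries came in that order from high to low with no overlap. Its log2 fold change was −0.38 (SE 0.13) in HN against Control and −0.47 (SE 0.13) in PEC against HN. Both were short of the fold limit. The former turned to 0.18 with total counts only, and across the alternatives the latter shrank to as little as −0.01. The change in PEC against Control was −0.85 (SE 0.13), with a Benjamini-Hochberg adjusted p of 0.000733 in edgeR's quasi-likelihood test, and with GC and length offsets it was −0.44 and not called.

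Me1 makes NADPH from malate. It measured 169, 158 and 207 in Control libraries, 43.2, 53.5 and 45.4 in HN libraries and 61.4, 82.2 and 45.3 in PEC libraries. All HN and PEC libraries were below all Control libraries, and PEC overlapped with HN. Me1 fell in HN against Control, with a log2 fold change of −1.88 (SE 0.20) and a Benjamini-Hochberg adjusted p of 8.89e-05 in edgeR's quasi-likelihood test. PEC against HN gave 0.42 (SE 0.20), with a Benjamini-Hochberg adjusted p of 0.12 in edgeR's quasi-likelihood test, and without PEC replicate 3 the change was 0.63 and called higher, while without PEC replicate 2 it was 0.20. PEC against Control gave −1.46 (SE 0.20), called lower. Acss2 makes acetyl-CoA from acetate. It measured 22.4, 26.8 and 24.8 in Control libraries, 8.08, 6.75 and 8.48 in HN libraries and 13.4, 17.2 and 13.2 in PEC libraries. HN libraries were lowest, PEC libraries lay in between and Control libraries were highest, with no overlap. Acss2 fell in HN against Control, with a log2 fold change of −1.64 (SE 0.13) and a Benjamini-Hochberg adjusted p of 1.65e-05 in edgeR's quasi-likelihood test. It rose in PEC against HN by 0.93 (SE 0.13), with a Benjamini-Hochberg adjusted p of 0.000621 in edgeR's quasi-likelihood test. PEC against Control gave −0.72 (SE 0.13), called lower.

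Acly makes acetyl-CoA from citrate. It measured 42.7, 38.5 and 34.04 in Control libraries, 38.8, 37.03 and 38.5 in HN libraries and 23.4, 29.1 and 24.2 in PEC libraries. All PEC libraries were below all others, and HN lay within the Control range. Acly had 0.01 (SE 0.11) in HN against Control. It had −0.56 (SE 0.11) in PEC against HN, with a Benjamini-Hochberg adjusted p of 0.00334 in edgeR's quasi-likelihood test, and was short of the fold limit. It had −0.55 (SE 0.11) in PEC against Control, short of the limit as well. With no filter on low counts the former was −0.59 and called. Without PEC replicate 2 both were called lower (−0.65 and −0.64), and without Control replicate 5 the change in PEC against Control was −0.63 and called. The summed level of Acly, Acss2 and Me1 was 234, 223 and 266 in Control libraries, 90.1, 97.3 and 92.5 in HN libraries and 98.2, 129 and 82.7 in PEC libraries, and their median change in HN against Control was −1.64 with TMM and −1.09 with total counts only.

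Fasn builds palmitate, and Acaca and Acacb make the malonyl-CoA it uses. Fasn measured 9.15, 6.85 and 7.96 in Control libraries, 7.44, 6.31 and 12.2 in HN libraries and 4.79, 4.75 and 8.997 in PEC libraries. HN replicate 12 and PEC replicate 3 were the highest of their groups, and all groups overlapped. Acacb measured 3.24, 2.58 and 3.61 in Control libraries, 1.52, 1.34 and 2.51 in HN libraries and 2.14, 2.57 and 5.49 in PEC libraries. Every HN library was below every Control library, and PEC replicate 3 was the highest of all. Acaca measured 1.61, 1.395 and 1.44 in Control libraries, 1.15, 1.296 and 2.002 in HN libraries and 1.43, 1.27 and 2.4 in PEC libraries. Its groups overlapped. Fasn had log2 fold changes of 0.14 (SE 0.31) in HN against Control and −0.47 (SE 0.31) in PEC against HN, not called, and without PEC replicate 3 the latter was −0.82 and called lower, while without HN replicate 12 it was −0.13 and not called. Acacb had −0.79 (SE 0.37) in HN against Control, not called, and was called lower when PEC replicate 3 (−0.80) or all PEC libraries (−0.74) were left out of the fit. It had 0.95 (SE 0.37) in PEC against HN, with a Benjamini-Hochberg adjusted p of 0.0698 in edgeR's quasi-likelihood test, and was called higher without HN replicate 12 (1.28), without PEC replicate 1 (1.19) or with GC and length offsets (1.31), while without PEC replicate 3 the change was 0.44 and not called. Acaca had 0.03, 0.21 and 0.24 in the 3 comparisons. None of these 3 genes was called in any comparison by edgeR with the default filter, TMM scaling, no offsets and all libraries, nor at an unadjusted p or by DESeq2 in HN against Control and PEC against Control (0 of 3 in each), while Acacb passed in PEC against HN at an unadjusted p and by DESeq2 (1 of 3 in each).

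Scd1 and Scd2 put a double bond into saturated fatty acids. Scd1 measured 19.99, 18.03 and 18.5 in Control libraries, 51.4, 48.9 and 75.4 in HN libraries and 48.2, 39.9 and 53.8 in PEC libraries. Every HN and PEC library was above every Control library, and HN and PEC overlapped. Scd1 rose in HN against Control by a log2 fold change of 1.66 (SE 0.18), with a Benjamini-Hochberg adjusted p of 9.85e-05 in edgeR's quasi-likelihood test. PEC against HN gave −0.29 (SE 0.18), not called, and PEC against Control 1.37 (SE 0.18), called higher. Scd2 measured 11.3, 7.96 and 7.56 in Control libraries, 8.73, 10.4 and 15.2 in HN libraries and 9.59, 32.6 and 39.5 in PEC libraries. PEC replicates 2 and 3 stood above all other libraries, and PEC replicate 1 was within the Control and HN ranges. Scd2 had 0.38 (SE 0.44) in HN against Control, not called. Its change in PEC against HN was 1.26 (SE 0.45), with a Benjamini-Hochberg adjusted p of 0.0519 in edgeR's quasi-likelihood test, and was called higher without PEC replicate 1 (1.67), by DESeq2 (1.26), with a minimum mean FPKM of 1 (1.29) and with GC and length offsets (1.51). Its change in PEC against Control was 1.64 (SE 0.45), with a Benjamini-Hochberg adjusted p of 0.0157 in edgeR's quasi-likelihood test, and the call was lost without Control replicate 4 (1.57) or Control replicate 5 (1.53).

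Fads2 starts the desaturation of polyunsaturated fatty acids. It measured 41.2, 46.3 and 51.1 in Control libraries, 28.7, 27.6 and 31.3 in HN libraries and 41.4, 44.7 and 31.6 in PEC libraries. All HN libraries were below all Control and all PEC libraries. Fads2 had a log2 fold change of −0.64 (SE 0.13) in HN against Control, with a Benjamini-Hochberg adjusted p of 0.00403 in edgeR's quasi-likelihood test, and it was not called without Control replicate 5 (−0.56), with a minimum mean FPKM of 1 (−0.56) or with the PEC libraries left out of the fit (−0.58). It had 0.44 (SE 0.13) in PEC against HN, short of the fold limit, and was called higher without PEC replicate 3 (0.60). Elovl6 lengthens palmitate. It measured 4.72, 4.36 and 4.58 in Control libraries, 4.42, 4.23 and 5.48 in HN libraries and 0.947, 2.41 and 3.81 in PEC libraries. PEC libraries were below all others and spread widely. Elovl6 had −0.96 (SE 0.39) in PEC against HN and −0.89 (SE 0.39) in PEC against Control, neither called, and without PEC replicate 3 both were called lower (−1.46 and −1.40), as they were by DESeq2 (−0.97 and −0.87), while without PEC replicate 1 they were −0.58 and −0.51 and not called. In HN against Control it had 0.07. Fads1 had 0.16, 0.23 and 0.38 and Elovl5 0.02, 0.01 and 0.04, none called by edgeR with TMM. Over the 9 fatty acid enzymes the median was 0.07, 0.21 and 0.16 in the 3 comparisons, and 0.64, 0.01 and 0.52 with total counts only, and that of the 6 elongases and desaturases alone turned from 0.12 to −0.08 in PEC against HN. Of the 9, 1 was called higher and 1 lower in HN against Control and 2 higher in PEC against Control. None of them was called in PEC against HN by edgeR with the default filter, TMM scaling, no offsets and all libraries, with 2 higher and 1 lower at an unadjusted p and 2 higher and 1 lower by DESeq2.

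Adipocyte markers varied between libraries of the same group. Their sum over 9 genes, led by Cfd, was 29.5, 5.13 and 3.74 in Control libraries, 3.75, 2.67 and 46.4 in HN libraries and 4.53, 4.83 and 485 in PEC libraries. Control replicate 2, HN replicate 12 and PEC replicate 3 had the highest sums of their groups. Adipoq measured 1.93, 0 and 0 in Control libraries, 0.0784, 0 and 3.98 in HN libraries and 0.0287, 0 and 58.5 in PEC libraries, and Ucp1 measured 2.58, 0 and 0 in Control libraries, 0, 0 and 2.86 in HN libraries and 0.0478, 0 and 48.5 in PEC libraries. Plin1 was at 0 in Control replicates 4 and 5, HN replicate 8 and PEC replicate 2. Of the 8 that could be tested, 2 were called higher in PEC against HN, Lipe (1.48) and Plin4 (2.91). In HN against Control edgeR called none, with 0 higher and 1 lower at an unadjusted p and 0 higher and 1 lower by DESeq2. In PEC against Control edgeR called none, with 1 higher and 0 lower at an unadjusted p and 0 higher and 0 lower by DESeq2.

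The fit was therefore repeated without these 3 libraries, a choice made after seeing the data. In HN against Control 12 of the 33 were then called lower, the 10 above with Nsdhl (−0.72) and Acacb (−1.10), and 1 higher, Scd1 (1.47), while Fdps (0.49) was not called. That fit called 15.0% of all tested genes higher and 13.2% lower. In PEC against HN 5 were called higher, Ebp (0.99), Acss2 (1.09), Nsdhl (0.85), Acacb (0.76) and Fads2 (0.65), and 3 lower, Hsd17b7 (−0.66), Msmo1 (−0.62) and Elovl6 (−1.34), beside 11.1% and 13.2% of all tested genes. In PEC against Control 10 were called lower, the 9 above with Elovl6 (−1.37), and 1 higher, Scd1 (1.33), while Scd2 (1.49) and Fdft1 (0.78) were not called, beside 14.6% of all tested genes called lower and 14.9% higher. With 2 libraries in each group, the part of the smaller number and the part of the adipocyte signal in these differences were not tested.

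**Figure D4:**
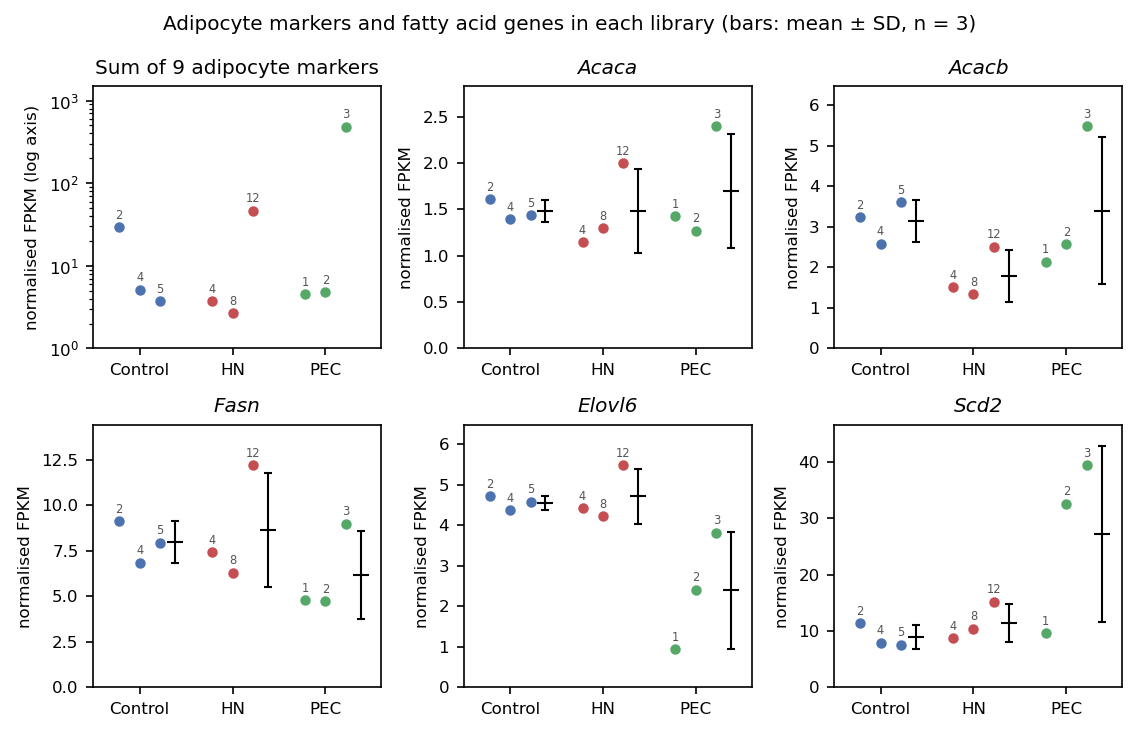
Summed level of 9 adipocyte markers (log axis) and levels of Acaca, Acacb, Fasn, Elovl6 and Scd2 (normalised FPKM, vertical axes) by group (horizontal axis), where points are libraries numbered by replicate and, for the 5 genes, bars are the mean and SD of 3. PEC replicate 3 has a marker sum of 485.0, beside 4.53 and 4.83 in PEC replicates 1 and 2, and the highest levels of all 5 genes in its group.

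Some reads may belong to other genes, and whether the counting used the strand is not given. Of the 33 genes, 18 overlap another gene in position, and in 5 the overlapping gene had at least 10% of the member's count. These were Fdft1 (Ctsb on the opposite strand, 3050% of its count), Acss2 (Gss, opposite strand, 128%), Srebf1 (Rai1, opposite strand, 54.1%), Cyp51 (Akap9, opposite strand, 44.1%) and Tm7sf2 (Vps51, same strand, 282%). Near-copies elsewhere were searched for at a minimum of 90% identity over at least 50% of the shorter transcript. The search listed 9 members, and in 2 the copies had at least 10% of the member's count. These were Scd2, with Scd1 at 95.5% identity and 258% of its count, and Acaca. The copy of Acaca is the pseudogene Gm5182, at 99.2% identity and 16.2% of its count. Read from the other side, the same match makes Scd2 a near-copy of Scd1, although the search did not list Scd1. The counts of Idi1 may include those of 3 copies with 6.07% of its count in total. The values of these genes are uncertain to that extent, most of all those of Fdft1, Acss2, Tm7sf2 and Scd2.

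The 250 bases before the transcription start were read for 26 of the 33 genes, those with a promoter in the RefSeq table used, 32 promoters in all. Short motifs were searched on both strands as exact strings, where N is any base. Variant forms were not counted, so a missing match does not show that an element is absent. The sterol regulatory element, written TCACNCCAC, matched in 1 of the 26 genes, Hmgcs1, and in 1.05% of all 32851 promoters. The NF-Y box CCAAT matched in 22 of the 26 genes, or 23 of 32 promoters (71.9%), beside 33.8% of all promoters. The Sp1 box GGGCGG matched in 20 of the genes, or 22 of 32 promoters (68.8%), beside 32.7% of all. The E-box CACGTG matched in 5 of the genes, or 5 of 32 promoters (15.6%), beside 6.02% of all. At least 2 NF-Y boxes lay in the promoters of 11 of the genes, and in 10.1% of all promoters. Of the 10 genes called lower in HN than in Control, 9 had an NF-Y box, Fads2 being the exception, and 10 had an Sp1 box. A match is a description of the sequence and does not show a site in use or a cause.

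Of the 10 genes called lower in HN than in Control, 9 have 1 promoter in the table, and the sequences of the 6 with the largest falls are given below, largest first (Hsd17b7, Sc5d and Fads2 fell less, and Me1 has 2 promoters). Positions are on mouse build GRCm38.p6 with RefSeq starts: Cyp51 chr5:4104698-4104947 (minus strand), Idi1 chr13:8885356-8885605 (plus strand), Acss2 chr2:155517793-155518042 (plus strand), Mvd chr8:122443423-122443672 (minus strand), Ebp chrX:8193513-8193762 (minus strand) and Hmgcs1 chr13:119690101-119690350 (plus strand). Each is read along the gene's strand, and capitals mark matches to the motifs above on either strand. The stretches of Cyp51, Idi1 and Acss2 reach past the start of the gene in the deposited table, since RefSeq places the start further in.
Cyp51: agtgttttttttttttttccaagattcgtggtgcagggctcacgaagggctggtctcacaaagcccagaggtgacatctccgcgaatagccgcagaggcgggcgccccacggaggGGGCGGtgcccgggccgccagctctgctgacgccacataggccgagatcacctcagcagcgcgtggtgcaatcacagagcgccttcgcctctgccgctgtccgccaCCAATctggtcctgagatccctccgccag
Idi1: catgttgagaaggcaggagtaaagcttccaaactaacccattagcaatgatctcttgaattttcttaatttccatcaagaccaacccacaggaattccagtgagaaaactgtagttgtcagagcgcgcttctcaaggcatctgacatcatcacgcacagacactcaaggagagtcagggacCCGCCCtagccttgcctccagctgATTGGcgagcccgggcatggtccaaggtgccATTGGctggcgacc
Acss2: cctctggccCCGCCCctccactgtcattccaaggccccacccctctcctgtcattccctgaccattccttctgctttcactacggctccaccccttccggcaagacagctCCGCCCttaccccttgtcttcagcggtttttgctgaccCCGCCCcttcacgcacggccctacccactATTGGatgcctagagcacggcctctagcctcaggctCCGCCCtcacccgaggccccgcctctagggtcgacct
Mvd: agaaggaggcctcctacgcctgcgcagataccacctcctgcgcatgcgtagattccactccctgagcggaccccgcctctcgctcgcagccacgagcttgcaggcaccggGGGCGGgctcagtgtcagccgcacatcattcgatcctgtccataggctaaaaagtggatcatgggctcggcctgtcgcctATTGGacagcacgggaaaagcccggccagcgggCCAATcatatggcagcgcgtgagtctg
Ebp: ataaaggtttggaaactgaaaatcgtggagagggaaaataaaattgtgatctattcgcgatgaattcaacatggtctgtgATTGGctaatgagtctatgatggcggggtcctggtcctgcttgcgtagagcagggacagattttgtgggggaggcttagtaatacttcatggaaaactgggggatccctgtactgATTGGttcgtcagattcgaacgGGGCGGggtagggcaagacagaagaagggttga
Hmgcs1: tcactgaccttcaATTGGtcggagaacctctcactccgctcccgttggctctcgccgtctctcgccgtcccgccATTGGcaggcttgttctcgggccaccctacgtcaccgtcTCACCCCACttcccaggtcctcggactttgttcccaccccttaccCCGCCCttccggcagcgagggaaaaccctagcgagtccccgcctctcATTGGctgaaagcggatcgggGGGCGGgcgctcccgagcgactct

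**Figure D5:**
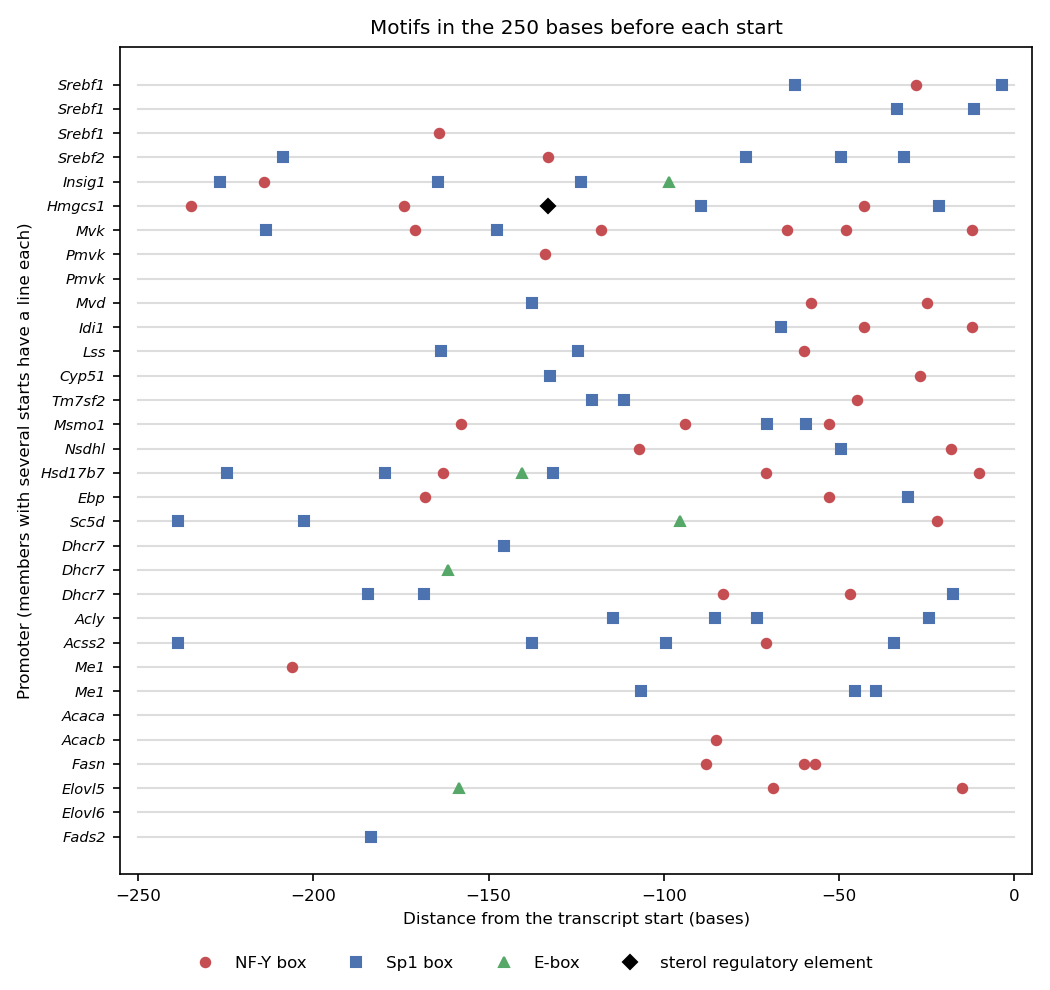
Motif matches (symbols by motif) along the 250 bases before the transcript start (horizontal axis, in bases) for 32 promoters of 26 genes (vertical axis, with a line for each start). The sterol regulatory element, searched as the exact string TCACNCCAC, is matched in Hmgcs1 only, and NF-Y boxes are matched in 23 of the 32 lines.

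Related genes outside the set were read through 4 lists. The 8 genes that process SREBP proteins had a median log2 fold change of −0.21 in HN against Control, which turned to 0.35 with total counts only. Called lower in PEC against HN were 2, Mbtps2 (−0.72) and Ube2g2 (−1.34), with a median of −0.30. In PEC against Control 2 were called lower, with a median of −0.56. Of 15 genes of sterol export, LXR signalling and esterification, 5 were called higher and 4 lower in HN against Control (median 0.40), 2 and 3 in PEC against HN (−0.13), and 5 and 3 in PEC against Control (0.32). Abca1, the sterol exporter, measured 3.07, 3.08 and 2.26 in Control libraries, 10.8, 9.29 and 10.2 in HN libraries and 3.76, 3.38 and 4.26 in PEC libraries, and had 1.87 (SE 0.15) in HN against Control and −1.39 (SE 0.15) in PEC against HN, both called. Apoe (2.65, −1.55) and Ch25h (2.46, −1.49) were called higher in HN than in Control and lower in PEC than in HN, and Cyp7b1 (−3.17, 0.90) the reverse.

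Of 10 tested genes among 11 others of the sterol pathway (Idi2 was at 0), 5 were called lower in HN against Control, with a median of −0.65 (−0.09 with total counts only). Nus1 (−1.13) and Dhdds (−1.06) were among those called lower. In PEC against HN 1 was called higher and 2 lower (median −0.36), and in PEC against Control 0 higher by edgeR, with 1 at an unadjusted p and 1 by DESeq2, and 5 lower (−0.62). Of 24 tested genes among 25 of lipogenic control and glycerolipid synthesis, 9 were called lower and 0 higher by edgeR in HN against Control, with 0 higher at an unadjusted p and 0 by DESeq2, with a median of −0.57 (−0.01 with total counts only). In PEC against HN 4 were called higher and 0 lower, the 0 by edgeR, at an unadjusted p and by DESeq2 (median 0.25), and in PEC against Control 3 were called higher and 8 lower, with a median of −0.11 that turned to 0.25 with total counts only and to 0.05 with upper-quartile scaling. Mlxipl, a sugar-sensing factor that drives lipogenic genes, had −1.59 (SE 0.11) and 1.94 (SE 0.12) in HN against Control and PEC against HN. Mogat1 (−2.37, 1.44) was called in both as well, and Dgat2 (−1.78) and Gpam (−1.40) were called lower in HN than in Control.

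The KEGG pathways that hold these genes were counted as well, and share members with the 33. Of Steroid biosynthesis (16 of 17 tested, 9 of them members), 1 was called higher and 5 lower in HN against Control (median −0.22), 1 and 1 in PEC against HN (0.05), and 3 and 4 in PEC against Control (−0.19). Of Terpenoid backbone biosynthesis (21 of 22, 6 members), the counts were 1 and 11 (−0.73), 4 and 1 (−0.28), and 0 and 13 (−0.83), the 0 being edgeR's, with 0 higher at an unadjusted p and 0 by DESeq2. Of Fatty acid biosynthesis (12 of 13, 3 members), they were 3 and 1 (0.09), 0 and 2 (−0.45), and 2 and 3 (−0.19), the 0 being edgeR's, with 2 higher at an unadjusted p and 2 by DESeq2. Of Biosynthesis of unsaturated fatty acids (29 of 30, 6 members), they were 2 and 11 (−0.57), 8 and 1 (0.25), and 4 and 8 (−0.20). With total counts only, the median of Steroid biosynthesis turned to 0.34, −0.15 and 0.17 in the 3 comparisons, and in PEC against Control those of Fatty acid biosynthesis and of unsaturated fatty acids turned to 0.17 and 0.16.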

How the data were processed

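Poly(A) RNA from 9 kidneys' libraries was measured by Illumina sequencing, in 3 groups of 3. The deposited table gives raw counts per gene and library, made by the authors, with 57714111 to 81069646 counts per library. The deposited FPKM, also made by the authors, are those counts scaled to gene length and to the total counted in the library. The aligner and the counter of the table are not given in the sources used here: the submitters' notes name Bowtie 0.12.2 and the builds mm8 and mm9, while the table's coordinates are those of GRCm38 (51954 of the 55144 genes also in GENCODE M21 have identical coordinates, 28 of the members among them).

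Counts were fitted in edgeR 4.0.16 (R 4.3.3) with TMM factors, its default filter on low counts (21392 genes kept) and a quasi-likelihood fit of all 9 libraries by group. The 3 pairs of groups were compared with 2-sided tests, with Benjamini-Hochberg adjustment over the tested genes, and a call took a fold change of at least 1.5 and an adjusted p of at most 0.05. Levels are the deposited FPKM divided by the TMM factor. The pipeline was tested on simulated data, with as many genes raised as lowered. Those data held no shift of the bulk of genes between groups, so the choice of scaling was not tested by them. Python 3.11.15, pandas 2.3.3 and numpy 2.4.6 made the summaries, and blastn 2.17.0 searched for copies.

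The 33 members and the pathway and marker lists were chosen by name with earlier results on these libraries known. All 33 are accounted for. Library values are given for Srebf1, Srebf2 and Insig1 and, in each role, for up to 3 members called in HN against Control or PEC against HN with the largest changes; in each pathway list up to 4 called genes are named in the same way. Genes named beyond this rule were chosen after their values were seen.

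Alternatives were RLE and upper-quartile factors, total counts only, no filter on low counts, a mean FPKM of at least 1, DESeq2 1.42.0, limma 3.58.1 with trend on log2 FPKM with 1 or 0.1 added (mean FPKM of at least 0.5), offsets for GC content and length (known for 99.8% of tested genes), the compared groups only, 3 other call rules (fold change of at least 2, no minimum fold change, unadjusted p of at most 0.05) and leaving out each library. A fit without 3 libraries, the highest of each group in adipocyte markers, was chosen after seeing the data. Bases before transcript starts were taken from RefSeq promoters on GRCm38.p6. No library and no value column was left out.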

Additional observations from a re-analysis of the deposited data

How the results depend on the processing

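In HN against Control 2 members were called higher, and 8 were with total counts only, 7 and 8 with limma on log2 FPKM with 1 and 0.1 added, 1 with a fold change of at least 2, 1 without the 3 libraries highest in adipocyte markers, and 1 to 3 with 1 library left out. A fold change of at least 2 left 13.7% of all tested genes called higher. The 10 called lower were 4 with total counts only and 5 with limma at either added value. In PEC against HN the 2 called higher were 6 with upper-quartile factors, 4 with DESeq2, 4 with a mean FPKM of at least 1, 4 with GC and length offsets, 4 at an unadjusted p, 4 with no minimum fold change, 0 with a fold change of at least 2, 5 without the 3 libraries, and 2 to 5 with 1 library left out. The 1 called lower was 10 with total counts only, 3 with DESeq2, 8 and 10 with limma with 1 and 0.1 added, 3 with no filter on low counts, 3 at an unadjusted p, 6 with no minimum fold change, 0 with a fold change of at least 2, 3 without the 3 libraries, and 1 to 4 with 1 library left out. In PEC against Control the 3 called higher were 6 with total counts only, 1 without the 3 libraries, and 2 to 3 with 1 library left out. The 9 called lower were 5 with total counts only, 5 with limma at either added value and 5 with a fold change of at least 2. That fold limit left 9.77% of all tested genes called lower.

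With limma, with 1 and 0.1 added, 30.0% and 38.1% of all tested genes were called higher and 6.6% and 7.68% lower in HN against Control, 8.74% and 10.9% higher and 21.9% and 27.4% lower in PEC against HN, and 23.1% and 30.2% higher and 9.58% and 12.4% lower in PEC against Control. An equal count can hold other genes: with GC and length offsets the 1 called lower in PEC against HN was a different gene, and 7 of the 9 called lower in PEC against Control were shared. The other counts stayed within 1.5 times those reported: 39 of 138 alternative counts moved further. A stricter or looser call rule changes a count by its construction, and total counts only and limma on FPKM leave out the TMM factor; for the other alternatives the cause was not tested. Among 2277 alternative fold changes of single members, 1846 kept their direction and side of the call rule, 109 gained a call, 58 lost one, and 264 that were not called in either setting changed sign or moved by more than their SE. Of the 2277, 125 changed sign, 69 of them with total counts only or with limma on log2 FPKM at either added value. The other 56 were elsewhere, where the reported size was at most 0.24 on the log2 scale. Of the 125, 0 were called in either setting.

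No paired analysis was possible because the groups share fewer than 2 replicate numbers. With 3 libraries a group, changes near the fold limit were called or not depending on single libraries. The lowest member count was 438, and the part of counting depth in these calls was not tested. Composition and a global shift of RNA content cannot be told apart from these counts.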
